A study of Mus musculus with 38 samples.

Results

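Islands of H3K36me3, trimethylation of lysine 36 of histone H3, were compared between male and female mouse liver. The animals were of the outbred CD-1 stock and 8 weeks old in both groups. Chromatin immunoprecipitation followed by sequencing used the Abcam antibody ab9050, with 2 libraries of each sex from whole liver, and the labels name no treatment or genetic change in either group. The files of a sex were identical byte for byte, so each sex is 1 pooled list: 25517 islands in the male list and 19057 in the female list, 44574 of the 384017 peaks and islands in the 12 lists of the series, which maps 6 marks. All islands of the male H3K36me3 list were set against all of the female list, by shared coordinates (an overlap of at least 1 bp), length, number of pieces and reads per kb. Pooled lists hold no spread between animals, so no test between the sexes was possible, and exact Clopper-Pearson 95% intervals cover counting error only. All coordinates are mm9 and all islands lie on the 19 autosomes. X and Y were not analysed here.

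H3K36me3 is written by SETD2, a methyltransferase carried by elongating RNA polymerase II, so it marks the bodies of transcribed genes and is low at their promoters. Readers of the mark recruit histone deacetylases and DNA methyltransferases, which keep start sites inside the gene body silent. In rodent liver, the sex-dependent pattern of growth hormone release sets the expression of many cytochromes P450, sulfotransferases and transporters, which makes the gene bodies of such enzymes the places where the mark could differ between the sexes. Whole liver is mostly hepatocytes by mass, and a lower signal in a bulk sample cannot tell fewer cells of a type from less of the mark per cell.

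The authors called an island male or female where the absolute log2 ratio of male over female signal was 1 or more and p was below 0.001. The sequences before 7 start sites next to called islands are shown first, since they lead or border the loci described further on. Each line gives the 250 bases before the RefSeq start (GRCm38.p6), 5′ to 3′ on the strand of the gene, and capitals mark the motifs found. The genes were placed on mm9 where a 35-base read of an IgG library, aligned to mm9 by the authors, matched a RefSeq promoter exactly. Hsd3b5 (a male-specific 3-ketosteroid reductase, start at base 98449458 of chromosome 3, minus strand) and C6 (a complement component of the membrane attack complex, base 4677211 of chromosome 15, plus strand) have islands called male. Cyp2b13 (base 26846515 of chromosome 7, plus strand) and Cyp2c69 (base 39961260 of chromosome 19, minus strand) are cytochromes P450 with islands called female. Slc22a26 (an organic anion transporter, base 7877158 of chromosome 19, minus strand), Sult3a2 (a sulfotransferase, base 33501922 of chromosome 10, minus strand) and Sorl1 (a sorting receptor, base 41885297 of chromosome 9, minus strand) also have islands called female.
Hsd3b5: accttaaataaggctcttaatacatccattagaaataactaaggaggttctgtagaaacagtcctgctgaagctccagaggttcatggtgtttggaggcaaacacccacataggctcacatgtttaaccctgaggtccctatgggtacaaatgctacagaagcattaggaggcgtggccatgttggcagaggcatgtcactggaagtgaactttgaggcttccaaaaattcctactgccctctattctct
C6: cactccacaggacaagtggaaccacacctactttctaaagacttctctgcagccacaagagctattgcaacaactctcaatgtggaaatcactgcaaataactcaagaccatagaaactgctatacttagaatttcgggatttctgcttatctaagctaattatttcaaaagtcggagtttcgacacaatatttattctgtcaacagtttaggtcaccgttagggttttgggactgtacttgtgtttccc
Cyp2b13: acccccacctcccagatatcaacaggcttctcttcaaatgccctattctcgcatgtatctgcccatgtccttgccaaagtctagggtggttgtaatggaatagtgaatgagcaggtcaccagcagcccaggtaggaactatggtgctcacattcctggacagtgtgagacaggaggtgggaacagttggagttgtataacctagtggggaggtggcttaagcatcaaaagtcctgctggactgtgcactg
Cyp2c69: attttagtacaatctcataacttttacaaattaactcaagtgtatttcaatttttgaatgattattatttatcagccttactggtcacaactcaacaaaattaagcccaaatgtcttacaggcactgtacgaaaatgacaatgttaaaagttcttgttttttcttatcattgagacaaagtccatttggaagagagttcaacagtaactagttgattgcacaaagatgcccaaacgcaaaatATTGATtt
Slc22a26: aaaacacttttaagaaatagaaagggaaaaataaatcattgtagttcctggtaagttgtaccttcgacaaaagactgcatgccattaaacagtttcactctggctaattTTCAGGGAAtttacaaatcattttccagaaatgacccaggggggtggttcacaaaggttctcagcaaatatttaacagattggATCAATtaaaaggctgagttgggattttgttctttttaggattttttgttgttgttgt
Sult3a2: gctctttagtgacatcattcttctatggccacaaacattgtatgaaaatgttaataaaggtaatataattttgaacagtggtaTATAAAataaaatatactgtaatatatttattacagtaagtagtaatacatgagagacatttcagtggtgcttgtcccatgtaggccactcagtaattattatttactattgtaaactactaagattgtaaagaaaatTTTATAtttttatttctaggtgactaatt
Sorl1: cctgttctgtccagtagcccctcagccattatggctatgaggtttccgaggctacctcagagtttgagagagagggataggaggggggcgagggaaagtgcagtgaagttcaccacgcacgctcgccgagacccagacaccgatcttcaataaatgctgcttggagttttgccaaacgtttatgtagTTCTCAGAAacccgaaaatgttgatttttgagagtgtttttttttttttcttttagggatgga

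Motifs were searched on both strands of these stretches: TTCNNNGAA, the core to which STAT5 binds, ATCAAT, the core of the HNF6 (Onecut1) site, and TATAAA. Slc22a26 holds TTCNNNGAA with its first base 141 bases before the start and ATCAAT at 58 bases, Cyp2c69 holds its reverse complement ATTGAT at 8 bases, and Sorl1 holds TTCNNNGAA at 63 bases. Sult3a2 holds TATAAA and its reverse complement. Of 7426 placed coding genes, 15 (0.202%) had a female-called island within 20 kb after the start, and of these 3 held TTCNNNGAA, 2 held ATCAAT and 2 held TATAAA. A male-called island was found at 8 (0.108%), and 0 of them held any of these motifs. Over all 32851 promoter stretches of the RefSeq table, 7.02% held TTCNNNGAA, 6.72% ATCAAT and 12.4% TATAAA. A match is a description of letters in this window, and no factor was measured here.

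The lists covered nearly the same length of the genome in a different number of islands. The male list covered 308.9 Mb with 14557426 reads, and the female list 316.6 Mb with 12881429 reads. The male islands had a median length of 6800 bp (quartiles 4000 and 14400) against 10800 bp (6400 and 20400) in the female list. Both lists agreed over 274.7 Mb, which was 88.9% of the male and 86.8% of the female base pairs, and 78.3% of the 350.8 Mb covered by either. Of the male islands, 4900 (19.2%, interval 18.7 to 19.7) had no overlap in the female list, and of the female islands 1332 (6.99%, interval 6.63 to 7.36) had none in the male list. Those islands were small in bulk: they held 6.42% of the male base pairs and 4.15% of the male reads, and 2.88% and 1.78% of the female ones. The order of the lists reversed when the male list was cut to its 19057 islands of highest fold over control, with 2617 male-only and 4049 female-only islands.

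The difference in number lay in islands of up to 5 kb. The male list held 9373 such islands (36.7% of its islands, 7.34% of its reads), and the female list 2711 (14.2%, 2.71% of reads). Above 10 kb the female list held more islands in each length class. In the male list the share without a female overlap fell with length, from 53.8% (interval 50.8 to 56.9) of 1068 male islands of up to 2 kb to 12.7% (11.96 to 13.53) at 5 to 10 kb and 0 of 742 over 50 kb, an upper limit of 0.496%. In the female list the shares were 7.06% (2.63 to 14.7) of 85 islands of up to 2 kb, 14.5% (13.1 to 15.9) at 2 to 5 kb, 12.6% (11.7 to 13.4) at 5 to 10 kb and 0 of 910 over 50 kb, an upper limit of 0.405%. At 5 to 10 kb the intervals of the lists overlap, and below 5 kb they do not. At 10 to 20 kb they do not overlap either, but the female share was the higher: 3.01% (2.56 to 3.50) against 1.82% (1.46 to 2.24) in the male list.

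**Figure D1:**
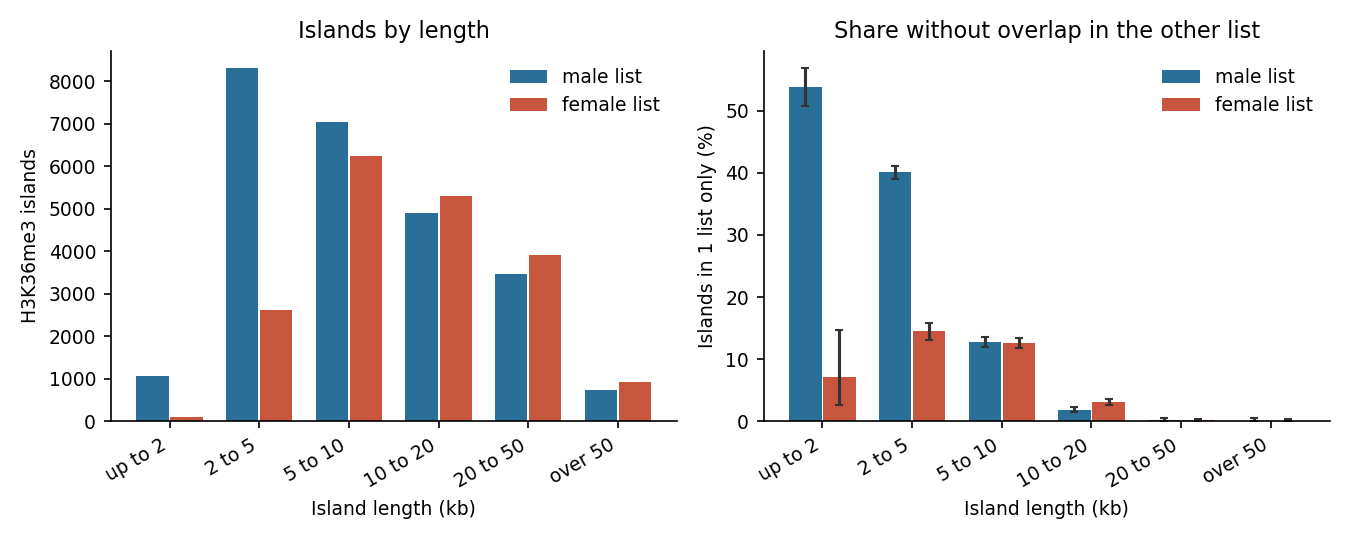
Left, number of H3K36me3 islands by length class (kb) in the male and female lists; right, percent of the islands of each class with no overlap in the other list, with exact 95% intervals as bars. The male list has 8305 islands of 2 to 5 kb against 2626 in the female list, and 40.1% of those male islands lack a female overlap against 14.5% the other way.

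Male-only islands were short and weak. Their median length was 3600 bp with 103 reads and 34 control reads, against 8800 bp, 326 and 91 in shared male islands. Read density, in reads per kb for each 1000000 reads in the islands of the list, had a median of 2.04 in male-only and 2.64 in shared male islands. Female-only islands had a median of 6200 bp, 150 reads and a density of 1.93, against 11400 bp, 381 reads and 2.65 in shared female islands. In the authors' deposited table, the log2 ratio of male over female signal had a median of 0.28 in male-only islands and 0.02 in shared male islands. Female-only islands had a median of −0.37 and shared female islands −0.03 in the authors' deposited table. That ratio lay within 0.5 of 0 in 3854 of the 4900 male-only islands (78.7%) and in 912 of the 1332 female-only islands (68.5%) of the authors' deposited table. Most islands in 1 list only thus had a ratio well short of a call. The median distance to the nearest island of the other list was 11200 bp for male-only and 7800 bp for female-only islands, and 1114 of the 4900 and 200 of the 1332 lay beyond 50 kb.

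Islands that were whole in the female list were more often broken in the male list than the reverse. Of the 17725 female islands with a male overlap, 3659 (20.6%, interval 20.05 to 21.25) overlapped 2 or more male islands, with a mean of 1.26 and a maximum of 7. Of the 20617 male islands with a female overlap, 1641 (7.96%, interval 7.59 to 8.34) overlapped 2 or more female islands, with a mean of 1.09 and a maximum of 4. Broken islands were long: the median female island over 1 male island was 9800 bp, over 2 was 18200 bp, over 3 was 29800 bp and over 5 was 49400 bp. Their median densities were 2.69, 2.55, 2.52 and 2.73, with no steady order. The mean number of male islands per overlapped female island lay between 1.21 and 1.34 on all 19 autosomes, and the ratio of male to female islands lay between 1.30 and 1.52.

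The gaps between male pieces were narrow. SICER joined windows of 200 bp across gaps of up to 800 bp, so a gap between islands is at least 1000 bp wide. Of the 4645 gaps between male pieces of 1 female island, 1838 (39.6%) had that smallest width and 3781 (81.4%) were up to 2 kb, with a median of 1200 bp and 8.02 Mb in all. The 1753 gaps between female pieces of 1 male island had a median of 1000 bp, and 882 (50.3%) had the smallest width. When islands of both lists were joined across 3200 bp, 11.98% of female islands held 2 or more male ones and 5.44% the reverse.

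More of the gaps than of the pieces beside them lay under enhancer marks. H3K4me1, which marks enhancers, covered 24.8% of the base pairs of male gaps and 12.1% of the male pieces in the same female islands (male H3K4me1 list). H3K27ac, a mark of active enhancers and promoters, covered 17.3% of gaps and 8.999% of pieces, and H3K4me3, the mark of active promoters, 1.19% and 0.508%. H3K9me3, which lies over silent chromatin, covered 2.79% and 2.84%. The gaps between female pieces also lay more under the enhancer marks, with 27.9% against 14.6% for H3K4me1 and 15.3% against 8.31% for H3K27ac in the female lists of those marks. H3K9me3 of the female list covered 3.78% of these gaps and 3.57% of the pieces, the opposite order to the male ones. Reads of a male IgG library, a control for mappable sequence, were 4.601 per kb in male gaps and 5.10 per kb in pieces, and 378 of the 4645 male gaps held no IgG read. What sets the gaps apart was not tested.

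**Figure D2:**
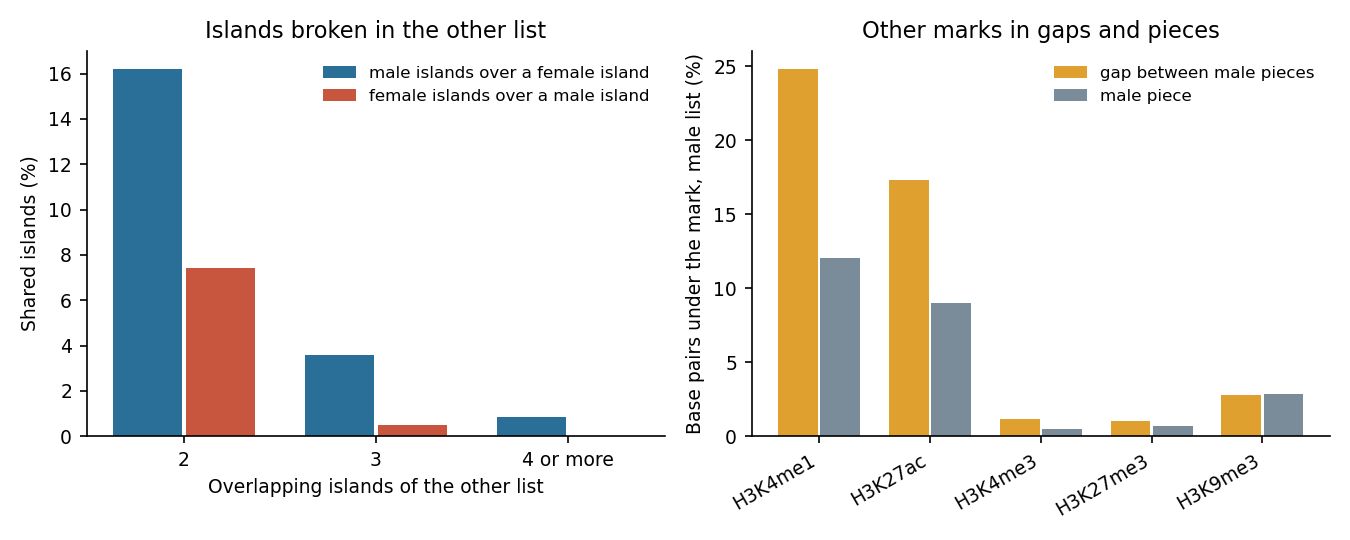
Left, percent of shared islands that overlap 2, 3 or at least 4 islands of the other list, for male islands over a female island and the reverse; right, percent of base pairs under 5 other marks (male lists) in gaps between male pieces and in the pieces. Male islands break a female island in 2 in 16.2% of cases against 7.44% the other way, and H3K4me1 covers 24.8% of the gaps against 12.1% of the pieces.

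The most broken islands show the pattern. The female island at chr6:139538800-139611399, between the starts of 4930404I20Rik and Gm45959, where RefSeq lists Pik3c2g, Plcz1 and Capza3, spanned 72.6 kb with 2883 reads. The male list had 7 islands of 3000 to 16000 bp over it, which covered 83.5% of its length with 2449 reads. Its ratio in the authors' deposited table was −0.30, and no call was made. On chromosome 15 the female island from 27710800 to 27835199, in the interval that holds Trio, a guanine exchange factor, was covered to 93.1% by 6 male islands with densities of 2.87 (female) and 2.96 (male). In the other direction, the male island of 69.6 kb that ends 6.4 kb from the start of Foxa2, a pioneer factor of hepatocytes, overlapped 4 female islands that covered 92.8% of it. The male island from 62919600 to 62980599 on chromosome 4 also overlapped 4 female islands, but these covered only 66.2% of it. Its density was 2.58 (male) against 2.01 (female). It begins 43.2 kb after the start of Col27a1, in an interval where RefSeq also lists the acute-phase genes Orm1 and Orm3, and it was not assigned to any of them.

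The longest islands were shared. The longest of each list overlapped on chromosome 12, in the interval of Syne2, a giant nuclear envelope protein, with 213.2 kb and 10945 reads for males and 234.8 kb and 10890 reads for females. In the interval of Usp34, a ubiquitin protease, on chromosome 11 the male island measured 167 kb and the female 183 kb, with densities of 4.997 and 4.999. The third longest male island, in the interval of Vps13d, had 157 kb and a density of 4.57, inside a female island of 193.4 kb with 3.97.

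Where the coordinates were equal the lists gave nearly equal density. There were 316 islands with the same start and end in both lists, with a median length of 11800 bp, and all 316 also had equal control reads. Their log2 ratio of male over female density had a median of 0.02 and an SD over islands of 0.15, with a range from −0.46 to 0.69. The male density was the higher in 178 (56.3%, interval 50.7 to 61.9), but scaling to reads in shared islands gave 67.1% and subtracting control reads gave 50.9%, so the scaling sets this share. The equal-coordinate island with most reads lies 15.9 kb after the start of Acaca, the acetyl-CoA carboxylase of fat synthesis, and had 6497 male reads (density 4.63) and 5831 female reads (density 4.70) over 96.4 kb. An island of 56.4 kb at 1.5 kb after the start of Srcap, a chromatin remodeller, had densities of 5.11 (male) and 5.05 (female).

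Over pairs and merged regions the densities also followed each other. In 11768 pairs of 1 male and 1 female island the female island was the longer in 7233 (61.5%), with medians of 9000 bp (male) and 10000 bp (female). The log2 density ratio of these pairs had a median of 0.04 and an SD of 0.19, and 98.1% lay within 0.5 of 0. Merging the lists gave 22122 regions, of which 15917 held islands of both, 4878 male islands alone and 1327 female islands alone. In regions of both lists the log2 density ratio ran from −0.24 at the 5th to 0.33 at the 95th percentile. It passed an absolute value of 1 in 3 regions in the male direction and in 3 others in the female direction.

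**Figure D3:**
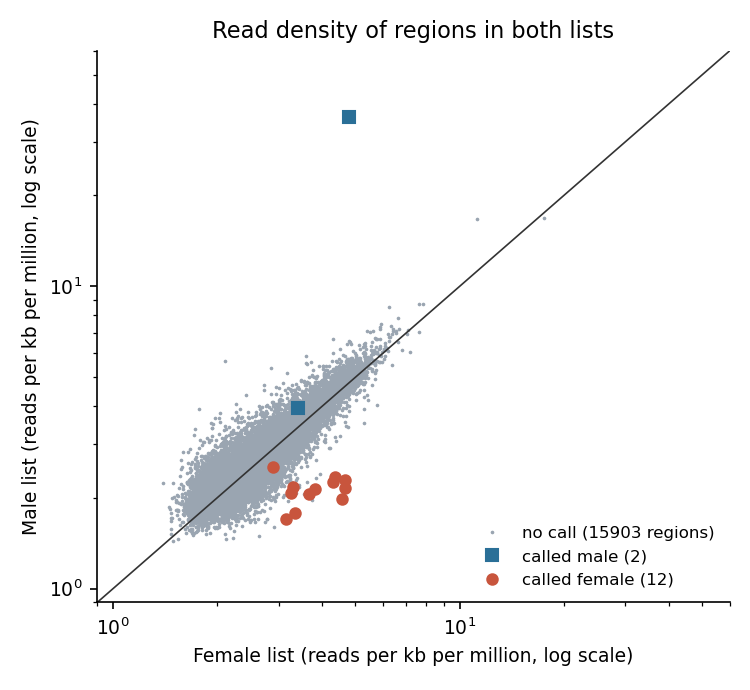
Read density (reads per kb for each 1000000 island reads, log axes) of the 15917 regions with islands of both lists, female on the x axis and male on the y axis, with the line of equality; colours mark regions with an authors' call. The uncalled regions lie along the line, 12 female-called regions lie below it, and 1 of the 2 male-called regions stands far above at 36.3 in the male list and 4.79 in the female list.

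At gene starts islands of both lists were rare and rose within 5 kb. Of the placed coding genes, 4311 had an H3K4me3 peak within 1 kb of the start in both sexes. An H3K36me3 island covered the start itself in 1.14% (male) and 1.09% (female) of them, the base 1 kb into the gene in 11.9% and 16.0%, the base 2 kb into it in 45.0% and 47.3%, and the base 5 kb into it in 60.1% and 60.96%. At 20 kb the shares were 49.1% and 50.4%. Among 2914 coding genes without an H3K4me3 peak in either sex the shares were 4.87% and 4.98% at the start and 6.14% and 5.97% at 5 kb. Edges were measured in 1916 pairs of 1 male and 1 female island with 1 placed coding start. Both upstream edges had to lie between 5 kb before and 10 kb after the start, so the medians are bounded by this choice. In these pairs the upstream edge lay a median of 1769 bp (male) and 1560 bp (female) into the gene. It was nearer the start in the female list in 992 pairs and in the male list in 600.

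**Figure D4:**
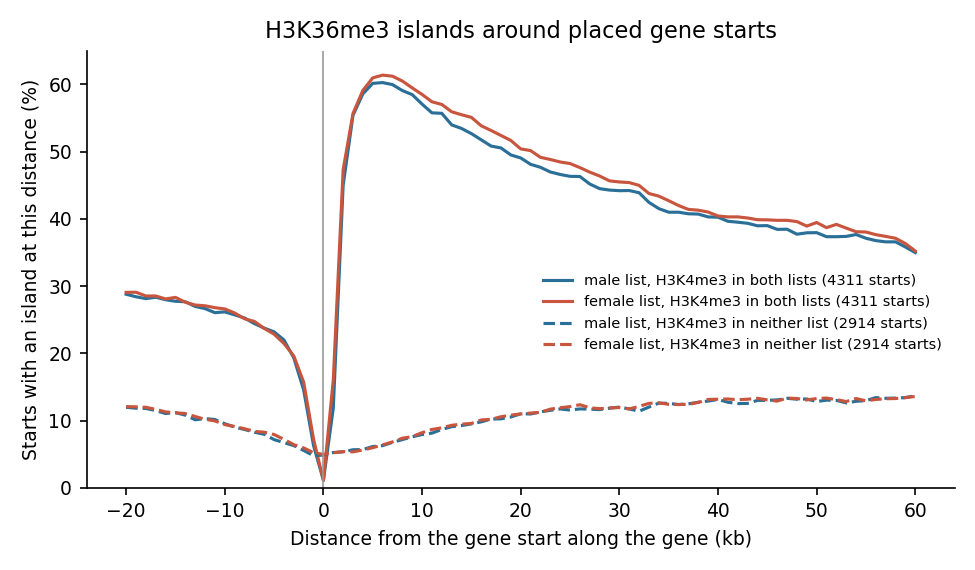
Percent of placed coding gene starts with an H3K36me3 island at each distance (kb) along the gene, for 4311 starts with H3K4me3 in both sexes (solid) and 2914 with it in neither (dashed), male and female lists. Islands are nearly absent at marked starts (1.14% and 1.09%) and reach 60.1% and 60.96% at 5 kb.

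Few islands were called sex-biased. In the male list 142 of 25517 islands were called male (0.556%) and 9 female (0.0353%), and in the female list 86 of 19057 were called female (0.451%) and 1 male (0.00525%), per the authors' deposited table. Of the 142, 140 had no overlap in the female list, and of the 86, 74 had none in the male list. Male-called islands were short, with a median of 4100 bp and 131 reads, against 8000 bp and 227.5 reads for female-called ones. The sizes were alike: the median absolute log2 ratio in the authors' deposited table was 1.29 and 1.30, and 10 male-called and 6 female-called islands reached 2. Just inside the threshold, 30 and 17 called islands had an absolute ratio under 1.1 in the authors' deposited table, and just outside it 63 male-list and 27 female-list islands had 0.9 to 1 in the direction of their list. Another 12 male-list islands and 0 female-list islands had a ratio of 1 or more in the authors' deposited table without meeting the p rule.

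Called islands sat in clusters. Joined across up to 50 kb they formed 87 male loci, 27 of them with 2 or more islands (82 of the 142), and 44 female loci, 18 with 2 or more (60 of the 86). Calls of other marks met these islands more often than islands at large. An H3K27me3 island called male, that is a repressive mark higher in males, overlapped 38 of the 86 female-called islands (44.2%) and 0.373% of all female-list islands, per the authors' deposited table. A female-called H3K27ac peak overlapped 30 of the 86 (34.9%) and 1.496% of all female-list islands, per the authors' deposited table. Of the 142 male-called islands, 13 (9.15%) overlapped a male-called H3K27ac peak, against 0.607% of all male-list islands, and 3 (2.11%) a female-called H3K27me3 island, against 0.0157%, per the authors' deposited table. Islands of 1 locus are not independent. By locus, 16 of the 44 female loci held a male-called H3K27me3 island and 22 a female-called H3K27ac peak. Of the 87 male loci, 14 held a male-called H3K27ac peak and only 1 a female-called H3K27me3 island, so those 3 islands lay in 1 locus. Of the 86 female-called islands, 50 (58.1%) overlapped an H3K27me3 island of the male list and 12 (14.0%) one of the female list. Among all female-list islands those shares were 4.79% and 5.52%. Of the 142 male-called islands, 32 (22.5%) overlapped an H3K27me3 island of the female list and 8 (5.63%) one of the male list. H3K9me3 overlapped 30 (21.1%) of them in the male list and 35 (24.6%) in the female list. Among all male-list islands the shares were 5.10% and 3.99% for H3K27me3 of the female and male lists. For H3K9me3 of the male and female lists they were 7.45% and 7.90%.

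**Figure D5:**
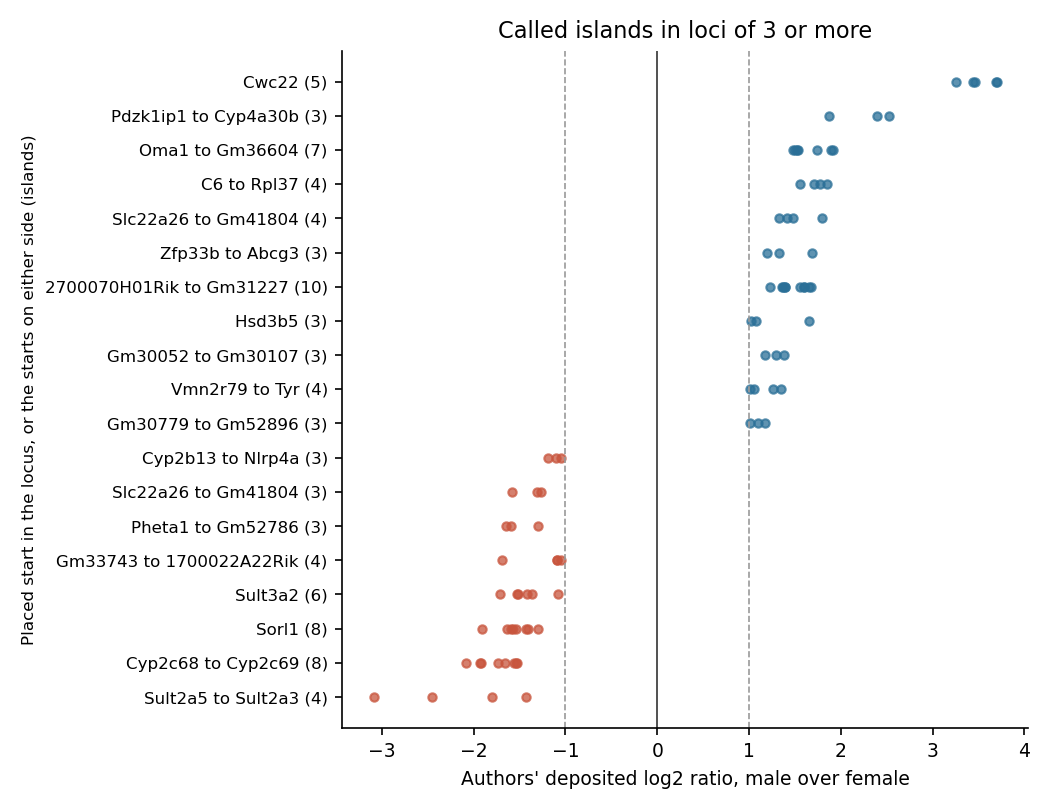
Log2 ratio of male over female signal in the authors' deposited table for 88 called islands in 19 loci of at least 3 called islands, labelled by the placed gene start inside the locus or the placed starts on either side, with the number of islands; dashed lines mark the call threshold of 1. The 11 male loci (blue) lie to the right and the 8 female loci (red) to the left, with the islands at Cwc22 farthest right.

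In the Sult2a cluster of hydroxysteroid sulfotransferases on chromosome 7, between the starts of Sult2a5 and Sult2a3, 4 islands from 14320800 to 14393399 were found in the female list and 0 in the male list. They held 132, 199, 110 and 422 reads, with ratios of −3.09, −1.80, −2.45 and −1.43 in the authors' deposited table. The first of them had the lowest ratio of all called H3K36me3 islands. The members of this family are similar in sequence, so reads could be split between copies, and only neighbouring starts were placed.

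The Cyp2b cluster lies on the same chromosome. A female-only island of 14.2 kb at chr7:26863200-26877399 begins 16.7 kb after the start of Cyp2b13 and had 592 reads, a density of 3.24 and a ratio of −2.52 in the authors' deposited table. A second of 16.0 kb follows with 792 reads and −1.80 in the authors' deposited table. Farther on, before Nlrp4a, in the interval that RefSeq gives to Cyp2b9 and Cyp2a4, 3 more female-called islands were not female-only. The island at chr7:26980800-26990799 had 602 female reads (density 4.67), and the male island inside it had 253 reads (density 2.29), with ratios of −1.05 and −1.13 in the authors' deposited table. Both lists held the mark there, with the lower density in the male list. Cyp2b10, the xenobiotic-inducible member, had a male island of 446 reads (density 3.004) and a female island of 386 reads (density 2.68). Its ratios were 0.13 and 0.08 in the authors' deposited table, with no call.

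On chromosome 19 the Cyp2c cluster of P450 enzymes held most. Between the starts of Cyp2c68 and Cyp2c69, where RefSeq also lists Cyp2c40, 8 female-only islands with 139 to 415 reads each covered 54.8% of 109.4 kb, and the male list had none. Their ratios ran from −1.53 to −2.08 in the authors' deposited table. Control reads there were sparse: 4.97 per kb, where the median female-list island had 10.4. The Cyp2c genes are similar in sequence, and the part of either fact in the result was not tested. Nearby, in the interval of Cyp2c39 and Cyp2c38, a female island of 47.6 kb with 2668 reads (density 4.35) overlapped 3 male islands. The called one of these had 16.2 kb, 576 reads and a density of 2.44, with a ratio of −1.28 in the authors' deposited table. Over the whole locus of 60.2 kb, 4 male islands covered 53.2% with 1050 reads and 2 female islands 89.0% with 2926 reads.

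Organic anion transporters followed. The female-only island at chr19:7853200-7864799, which lies 12.4 kb downstream of the Slc22a26 start, had 649 reads and −2.21 in the authors' deposited table. Its neighbour over Slc22a26 had 404 reads and −1.49 in the authors' deposited table, and together they covered 95.7% of 23.0 kb. Another 3 female-only islands begin 59.04 kb upstream of the Slc22a26 start. In the same family interval, which holds Slc22a27, Slc22a28 and Slc22a29, 4 male-only islands lie at 8134400 to 8191999 with 378, 310, 172 and 125 reads and ratios of 1.79, 1.41, 1.33 and 1.48 in the authors' deposited table. Islands called in opposite directions thus lay in 1 interval, between the starts of Slc22a26 and Gm41804.

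Further female loci were made of many islands. In a locus around the Sult3a2 start on chromosome 10, 7 female islands and 0 male ones covered 44.8% of 122.8 kb. The 6 called ones had 131 to 722 reads, with ratios from −1.08 to −1.71 in the authors' deposited table. Not all of them lie over Sult3a2. The one with 722 reads lies 86.1 kb upstream of its start, in an interval where RefSeq also lists Sult3a1 and Rsph4a. Over Sorl1 on chromosome 9, 8 female-only islands with 135 to 377 reads covered 66.7% of 114 kb, with ratios from −1.30 to −1.91 in the authors' deposited table. The Sorl1 islands had low densities of 1.80 to 2.44, and the locus held no H3K27me3 call. In the interval of Cux2, a repressor known from female liver, 3 female-only islands of 223, 313 and 217 reads had −1.30, −1.59 and −1.65 in the authors' deposited table. Hao2, a peroxisomal hydroxy acid oxidase, had the mark in both sexes: 954 reads over 16.2 kb (density 4.57) in the female list and 225 reads over 7.8 kb (density 1.98) in the male list.

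Male-called islands were led by 1 segment of chromosome 2. The 5 islands from 77707600 to 77866199, over and upstream of Cwc22, a splicing factor, held 50982 reads. The first had 43677 reads and a density of 36.3, the highest of either list, and the female island inside it had 3185 reads and a density of 4.79. Control reads in the segment were also dense: 33.0 per kb, above the 95th percentile of the male list (14.2). Their part in the result was not tested. Without this segment 137 male-called islands were left.

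C6 carried 4 male-only islands with 835, 910, 151 and 1799 reads, which covered 80.9% of 86.8 kb, with ratios of 1.85, 1.71, 1.55 and 1.77 in the authors' deposited table. Around Hsd3b5, islands of 1455, 118 and 96 reads were male-only with 1.65, 1.08 and 1.02 in the authors' deposited table. In the interval of the fatty acid hydroxylases Cyp4a12a and Cyp4a12b on chromosome 4, 3 islands had 389, 67 and 551 reads and 2.53, 1.87 and 2.39 in the authors' deposited table. Between Adh6a and Adh4, both alcohol dehydrogenases, 2 islands had 257 and 71 reads and 2.23 and 1.89 in the authors' deposited table. In the interval of Nox4, an NADPH oxidase, 4 called islands had 290 to 1673 reads, and with 1 uncalled island they covered 84.8% of 119.8 kb. A stretch of chromosome 14 from 66263600 to 66384199 carried 10 male-only islands, the most of any locus, with only 59 to 242 reads each and ratios from 1.23 to 1.67 in the authors' deposited table. Its nearest placed starts lie 2590 and 2671 kb away, so it was given no gene.

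Members of chosen gene lists were read in the window of up to 20 kb after the start. The lists were chosen with earlier results of these data known, so counts in them are a description and not independent support. Of 27 genes known as female-biased in liver, 9 were placed, and 6 of them (Cyp2b13, Cyp2c69, Fmo2, Hao2, Slc22a26 and Vldlr) had a female-called island and 0 a male-called one. These are to be read against the 0.202% and 0.108% over all placed coding genes. In Vldlr, a lipoprotein receptor, and in Fmo2 the window held female islands alone, with 1149 and 569 reads. The Vldlr island also overlaps a male island of 258 reads beyond the window. Cyp3a16 and Cyp3a44, both P450 enzymes, had no island in their windows in either list.

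Of 24 genes known as male-biased, 13 were placed, and 2 (C6 and Hsd3b5) had a male-called island. All 11 with a male island had a ratio above 0 in the authors' deposited table, with a median of 0.36, and 61.8% of all male-list islands lay above 0 there, with a median of 0.05. Control density was above the list median at 10 of these 11, and its part in the ratios was not tested. A female island was found at 6 of the 13. Slco1a1, an organic anion transporter, had 3651 male reads over 44.8 kb (density 5.60) and 2935 female reads over 47.6 kb (density 4.79). C8a, another complement component, had 1314 reads in males and 933 in females over islands of 20 and 20.2 kb. Egfr, the epidermal growth factor receptor, had its window covered to 95.035% by 1 male island and to 87.0% by 2 female islands. The male island spanned 93.4 kb, well beyond the window, with a density of 3.997. Of the female islands, the one with most bases in the window spanned 15 kb, with a density of 2.97. Ratios for this male and this female island were 0.61 and 0.52 in the authors' deposited table. Cyp2d9 had a male island of 219 reads and none in the female list, with 0.89 in the authors' deposited table. Susd4 and Ugt2b38 had no island in either list.

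Most placed hepatocyte genes carried the mark. Over all placed coding genes, 45.7% had no male and 48.1% no female island in the window. Among the 4311 with H3K4me3 at the start in both lists, 18.65% had no male and 21.7% no female island. The placed hepatocyte genes lacked a male island in 9.09% and a female island in 36.4%. In the female list they thus lacked an island more often than the genes with H3K4me3, though few were placed. Of 22 hepatocyte genes, 11 were placed, 10 had a male island, 7 a female island, and none was called. Apob had the highest density of them, with 4200 male reads (density 7.21) and 3040 female reads (density 5.87) over 40 kb. Alb, the albumin gene, had a male-only island at chr5:90890000-90906599 with 1473 reads, a density of 6.10 and 0.82 as its ratio in the authors' deposited table. Ahsg (425 reads) and Tat (568 reads) were likewise in the male list alone, with 0.44 and 0.61 in the authors' deposited table. Control reads were dense at these 3, with 28.8 per kb at Alb, 29.4 at Ahsg and 33.3 at Tat where the list median was 10.3, and all 10 hepatocyte genes with a male island lay above that median. Whether control reads account for the lack of a female island was not tested. All 10 male islands at hepatocyte genes had a ratio above 0 in the authors' deposited table, with a median of 0.32, beside the 61.8% above 0 and the median of 0.05 over all male-list islands. Male-only islands, to which Alb, Ahsg and Tat belong, had a median of 0.28 in the authors' deposited table.

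Few markers of other liver cells were placed: 3 of 8 for Kupffer cells and macrophages, 1 of 8 for endothelium and 1 of 8 for stellate cells. For bile duct 3 of 6 were placed, for lymphocytes 1 of 6 and for genes silent in liver 2 of 10. No island lay in the windows of Clec4f and Cd5l (Kupffer cells), Stab2 (endothelium) or Cftr, Epcam and Spp1 (bile duct) in either list. The same held for Ptprc (leukocytes) and for Neurod1 and Pou5f1, which are silent in liver. Cd68, a macrophage gene, lies in a window covered to 85.0% by male and 87.0% by female islands, and Lrat, of stellate cells, had 13.0% in the male list alone. The Cd68 start, at base 69479673 on the minus strand, had no H3K4me3 peak in either list. The islands with most bases in its window reach only base 69474199 (male) and 69474399 (female). The window can hold other genes that were not placed, so its coverage cannot be assigned to Cd68. In the growth hormone pathway 11 of 14 genes were placed and 0 called. Igf1, its main secreted target, had a short window of 2.282 kb, covered to 100% in both lists, and its islands had ratios of 0.27 and 0.26 in the authors' deposited table. Stat5a, a signal transducer, had densities of 3.27 and 3.28, and Onecut1, which encodes HNF6, 3.94 and 3.29. Among genes that write, erase or read H3K36 methylation 5 of 20 were placed and 0 called. The placed ones were Dnmt3a, Kdm4a, Morf4l1, Phf19 and Zmynd11, so the gene of the writer SETD2 was not among them. Morf4l1, a reader of the mark, had densities of 5.08 (male) and 4.96 (female).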

How the data were processed

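Per the labels, H3K36me3 was profiled in livers of 2 male and 2 female libraries. Bowtie, SICER 1.1 and genome build mm9 are named in the submitters' processing notes. The deposited sample and control read counts are whole numbers per island, and the deposited fold is a ratio over control. The deposited log2 ratio of male over female signal, its p-value and call come from the authors, whose normalization no label or header states. The start column of the deposited IgG reads (unit "other", a position) served to place gene starts. Computed here with Python 3.11.15, pandas 2.3.3, numpy 2.4.6 and scipy 1.17.1 were overlaps of 1 bp, lengths, pieces, and reads per kb divided by the reads in all islands of the list; figures used matplotlib 3.10.9. Interval routines were tested on simulated islands. Exact binomial intervals are at 95%. Of 32851 RefSeq promoters, 12287 autosomal ones were placed by exact read matches, and 64 out of order were dropped; genes not placed are named only as lying between placed neighbours in RefSeq order. Islands named in the text are those with the largest ratio, most pieces, greatest length, most reads in 1 list only, or equal coordinates with most reads, and the members of the gene lists. Loci were added after the calls were seen. The members and lists were chosen with earlier results of these data known. The p-value and FDR of enrichment were not used. The reads in islands numbered 14557426 (male) and 12881429 (female). These sums depend on which islands were found, and sequencing depth itself was not compared. Nothing in the labels says how many animals gave the libraries. 1 locus of called islands is not reported here.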

Additional observations from a re-analysis of the deposited data

How the results depend on the processing

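Of 33 alternative values for 7 results, 17 stayed within the main interval or within 1.5 times the main count, and 16 did not. The order of the lists by islands without overlap reversed under 1 alternative. Male-only islands moved from 4900 to 2617 and female-only from 1332 to 4049 when the longer list was cut to the length of the shorter by fold, and female-only islands rose to 2540 when 50% of the island had to be covered. The share of female islands holding 2 or more male islands (20.6%) was 13.4%, 11.98% and 8.78% with islands joined across 1600, 3200 and 6400 bp, 19.99% with islands of at least 2 kb and 15.0% with a fold of at least 2. The reverse share (7.96%) was 4.37%, 5.44% and 5.74% with the same joining and 5.67% with that fold. Male excess at equal coordinates (56.3%) was 67.1% when scaled by reads in shared islands and 50% with their median set to 0 by construction. Calls fell to 36 male and 33 female at an absolute log2 of 1.5. Leaving out the chromosome 2 segment, chosen after seeing the data, kept all 6 results it touches within those limits. No paired analysis was possible because the files of a sex hold 1 pooled list, and leaving out a replicate was not possible for the same reason. Islands of 103 reads, the male-only median, limit what their density can show, and gene names rest on 7426 placed coding genes, none of them on chromosome 18, whose 6 male and 1 female loci count in no gene share, with near-identical gene families uncertain.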
